A study of Homo sapiens with 12 samples.

Results

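The HOX cluster genes are 39 of the 29972 gene rows in each of the 2 deposited tables, chosen by name as HOX followed by A, B, C or D and a number, which leaves out antisense and other noncoding transcripts of the clusters. The values below cover 38 of them, 10 in HOXA, 10 in HOXB, 9 in HOXC and 9 in HOXD. The libraries hold messenger RNA of BoM-1833 and MDA-MB-436, both labelled as triple-negative breast cancer cell lines, and BoM-1833 is known as a derivative of MDA-MB-231 selected for growth in bone. Each line was reverse transfected at 5 nM total siRNA with either a non-targeting control pool (siNT) or a 1:1 mixture of 2 siRNAs against PHF19 (siPHF19), and RNA was taken 72 h later. That gave 4 groups of 3 libraries, 12 in all. All groups went through transfection, and none was left untransfected. The non-targeting pool was bought from another supplier than the siRNAs against PHF19, and since the 2 PHF19 siRNAs were only used together, loss of PHF19 and other effects of their sequences cannot be told apart. The labels do not say that the libraries of a group came from separate cultures, so all p-values measure only the spread between these libraries.

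HOX genes encode homeodomain transcription factors that set position along the body axis, and in each cluster the genes stand in the order in which they are used from head to tail. Low-numbered genes respond early to retinoic acid, high-numbered genes act in the trunk, limbs and genital tract, and the proteins bind DNA with partners of the TALE family such as PBX and MEIS. The clusters are textbook targets of Polycomb repression. Polycomb repressive complex PRC2 places methyl groups on lysine 27 of histone H3, and Trithorax-group proteins act against it. PHF19 is a Polycomb-like accessory subunit that helps to bring PRC2 to unmethylated CpG-rich DNA. In breast epithelium and breast cancer, HOX genes are expressed in patterns that differ between tumours and cell lines.

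PHF19 itself was depleted in both lines. Its normalized count, which is a read count divided by a size factor for each library, was 2942 to 3763 in the MDA-MB-436 siNT libraries and 315 to 340.1 in the siPHF19 libraries, and 1669 to 1711 against 173 to 201 in BoM-1833. Depth was 15.2 to 24.0 M reads in genes per library in MDA-MB-436. In BoM-1833 it was 17.6 to 21.3 M in siNT and 13.7 to 16.6 M in siPHF19, so that every siPHF19 library of that line was shallower than every siNT library. Of the markers that fit the labels, ESR1 and PGR had mean normalized counts of 0.314 and 0 for MDA-MB-436, against 1.71 and 0.307 for BoM-1833, while the receptor gene ERBB2 had 1079 and 1080.1. The epithelial markers CDH1, GATA3 and EPCAM had 0.698, 2.15 and 90.3 for MDA-MB-436, and 9.64, 150.2 and 106.2 for BoM-1833. Among 8 markers of immune, endothelial, stromal and red blood cells, CD3E, DCN and HBB were at 0 in every library of both lines. Above them, CD68, COL1A1, PECAM1 and PTPRC had mean normalized counts of 3127, 391, 321 and 17.5 for BoM-1833. For MDA-MB-436 these were 670.0, 100.1, 23.0 and 0.311. Summed over those 8, the level was 815 to 898 in siNT and 691 to 767 in siPHF19 in MDA-MB-436, and 3694 to 4074 against 3779 to 3880.1 in BoM-1833. In MDA-MB-436 this sum was carried by CD68 (mean 670.0), which fell by 0.36 on the log2 scale (adjusted p 0.00277), while the collagen gene COL1A1 rose by 0.61 (adjusted p 0.0189) and by 0.63 in BoM-1833 (adjusted p 1.6e-06), by the DESeq2 Wald test of the authors' deposited tables. Among the breast epithelial markers, the keratin genes KRT8 and KRT18 rose in both lines, by 0.69 and 0.26 in MDA-MB-436 and by 0.70 and 0.46 in BoM-1833 (largest adjusted p 7.31e-04, DESeq2 Wald test, authors' deposited tables). The mesenchymal markers were VIM, ZEB1 and FN1. In BoM-1833 VIM fell by 0.21 and ZEB1 by 0.30 (adjusted p 0.00213 and 0.0145, DESeq2 Wald test, authors' deposited table). ZEB1 was not called there by limma. FN1 was at -0.29 in that line (adjusted p 0.532, same test). By the deposited test none of the 3 was called in MDA-MB-436. FN1 was at 0.55 there (adjusted p 0.109, DESeq2 Wald test), and edgeR and limma each called it. The part of these shifts in the HOX results was not tested.

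The lines differed widely in which HOX genes were on. A member is called expressed here at a mean normalized count of at least 10 over the 6 libraries of a line, and not expressed below it. By that measure MDA-MB-436 expressed 27 of 38 members and BoM-1833 expressed 14 of 38. Expressed in both were 11 members, which is 40.7% of those of MDA-MB-436 and 78.6% of those of BoM-1833. HOXB5, HOXB8 and HOXD1 were expressed in BoM-1833 only, and 8 members in neither line, namely HOXA6, HOXA9, HOXB1, HOXB2, HOXC12, HOXD9, HOXD10 and HOXD12. In MDA-MB-436 HOXB1 and HOXC12 had 0 reads in all 6 libraries, and 9 further members had reads but stayed under the minimum. In BoM-1833, 17 members had 0 reads in all 6 libraries and 7 had reads below the minimum. Nearest the minimum in MDA-MB-436 were HOXA9 (mean normalized count 5.38) and HOXD1 (8.91) below it and HOXD11 (12.3) and HOXA2 (18.5) above it. In BoM-1833 these were HOXB4 (4.71) and HOXC9 (6.12) below, and HOXB7 (11.2) and HOXB5 (12.2) above.

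**Figure D1:**
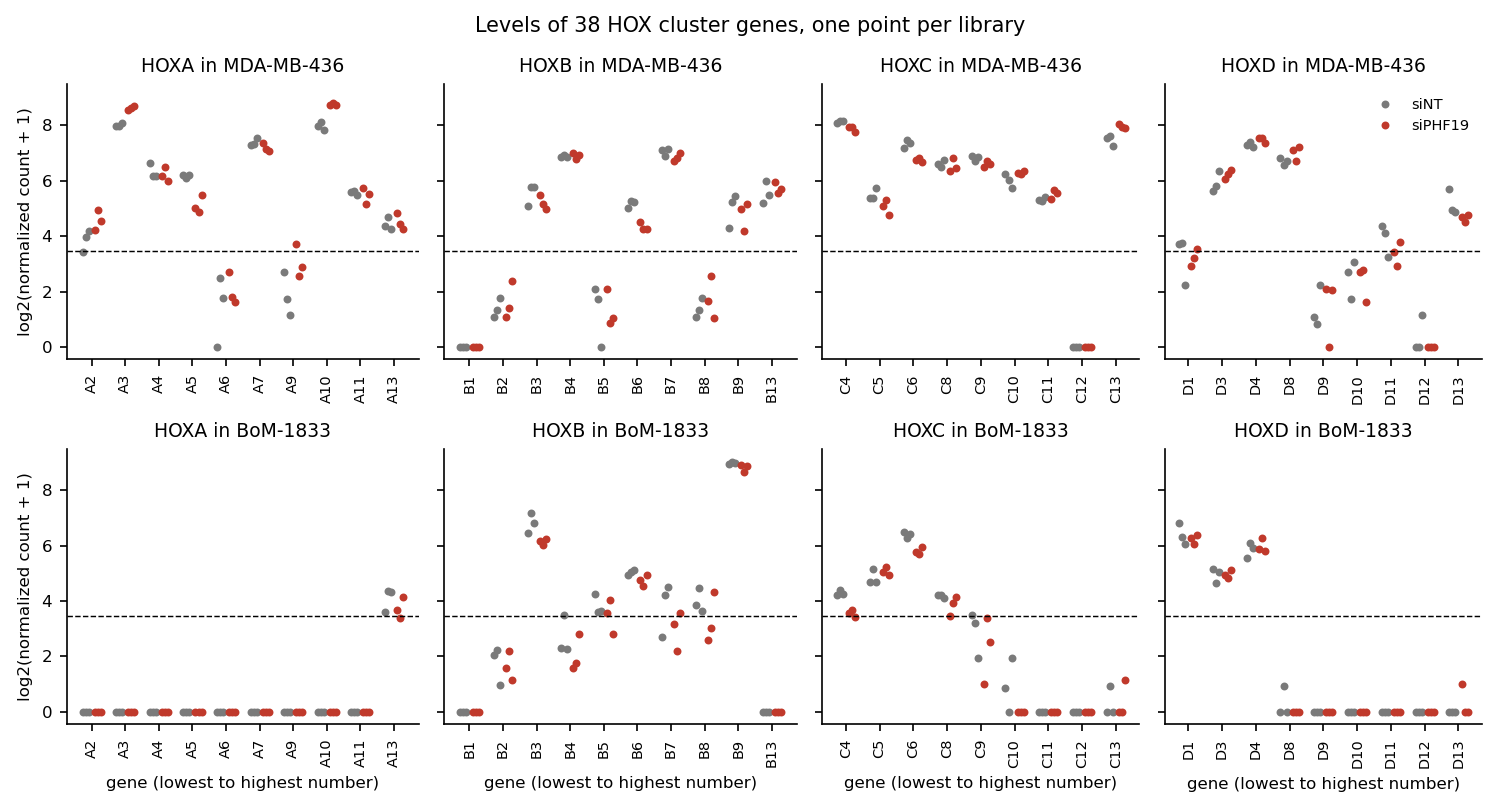
Level of each of 38 HOX cluster genes as log2(normalized count + 1), by cluster (columns) and cell line (rows), with 3 siNT (grey) and 3 siPHF19 (red) libraries per gene as points and a dashed line at a normalized count of 10. In BoM-1833 the 9 genes from HOXA2 to HOXA11 lie at 0 in every library and HOXB9 is the highest point, whereas MDA-MB-436 has 27 genes above the line across all 4 clusters.

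Summed over a cluster, HOXA carried 48.7 ± 0.797 RPM (reads scaled to a common number of reads in genes; SD, n = 3) in the siNT libraries of MDA-MB-436 and HOXC 52.0 ± 1.15, against 22.2 ± 2.13 for HOXB and 20.7 ± 0.490 for HOXD. In BoM-1833 siNT, HOXB carried 42.3 ± 3.49 RPM, which was 67.2% of all HOX reads, while HOXA carried 0.988 ± 0.286, HOXC 9.30 ± 0.357 and HOXD 10.4 ± 1.01. The tables of the lines were normalized separately, so these levels are set side by side in RPM and were not tested. After siPHF19 the HOXA sum of MDA-MB-436 was 64.1 ± 0.833 RPM, with 48.0 to 49.6 in siNT and 63.4 to 65.0 in siPHF19, so the groups did not overlap. The share of HOXA in all HOX reads of that line was 33.9% in siNT and 40.5% in siPHF19. HOXB (20.4 ± 1.44) and HOXC (50.6 ± 2.63) after siPHF19 overlapped their siNT ranges, and HOXD was at 23.3 ± 1.18, with 22.0 to 24.2 against 20.2 to 21.2. In BoM-1833 HOXC was 7.13 ± 0.537 after siPHF19, below all siNT libraries, as was HOXB at 35.1 ± 3.45 whose highest library had 37.6 against 39 in the lowest siNT library. The sums are dominated by their most abundant genes and mix members that went in opposite directions.

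**Figure D2:**
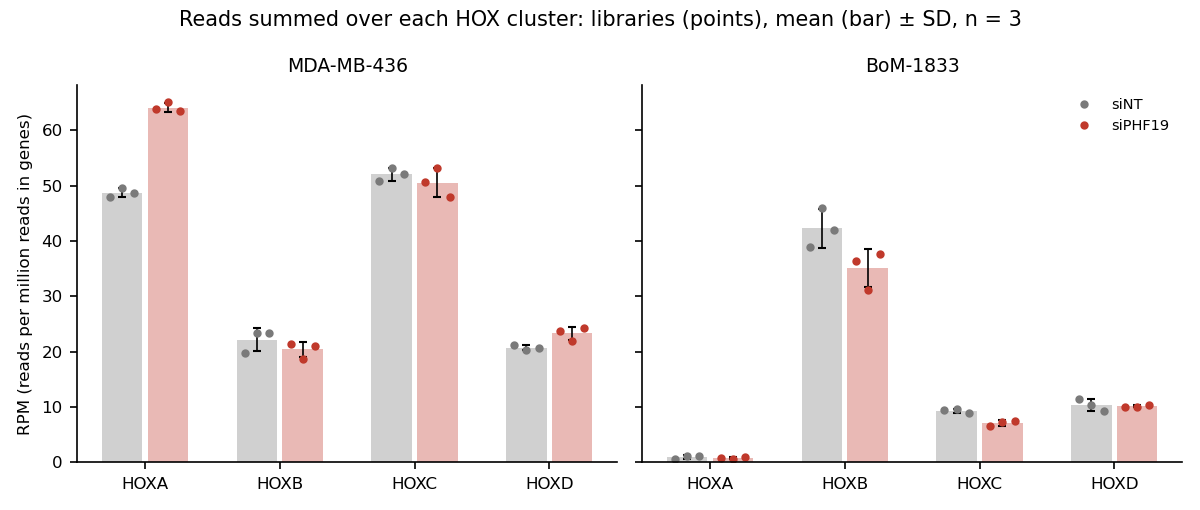
RPM (reads scaled to a common number of reads in genes) summed over each HOX cluster, in siNT (grey) and siPHF19 (red) libraries of each cell line, as points with the mean (bar) and SD (n = 3). The HOXA sum of MDA-MB-436 is 48.7 in siNT and 64.1 in siPHF19, and in BoM-1833 HOXB stands above the other clusters.

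In MDA-MB-436, 28 members had an adjusted p in the authors' deposited table, and 5 of these were called at an adjusted p under 0.05 by the DESeq2 Wald test. HOXA3, HOXA10 and HOXC13 rose, and HOXA5 and HOXC6 fell. The share called was 17.9%, against 22.1% of all genes tested in that line (10.5% higher and 11.5% lower), so HOX genes were not called more often than genes in general. The highest mean normalized count among these members was 342 (HOXA10), below the median of 487 over all genes tested. Shares called at like levels were not compared. Leaving out any 1 of the 3 siPHF19 libraries left 3 calls (DESeq2). In those fits the share called over all genes tested also fell, from 22.1% to 12.9%, 13% and 13.8%. In 12 of the 28 the siNT and siPHF19 libraries did not overlap (5 higher, 7 lower), and over all genes tested 42.2% did not. Their median log2 fold change was -0.09, beside -0.00 over all genes tested, with 12 members above 0 and 16 below. In BoM-1833, 8 members had an adjusted p in the authors' deposited table and 1, HOXB3, was called lower, which is 12.5% against 10.9% of all genes tested (5.21% higher and 5.72% lower). Groups did not overlap for 3 of the 8, all lower, where 31% of all genes tested did not overlap, 15.3% with siPHF19 above and 15.7% with it below. Their median there was -0.19 beside -0.00 over all genes tested, and 6 of the 8 were below 0. These are bulk libraries, in which fewer cells expressing a gene and less of its RNA per cell cannot be told apart.

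**Figure D3:**
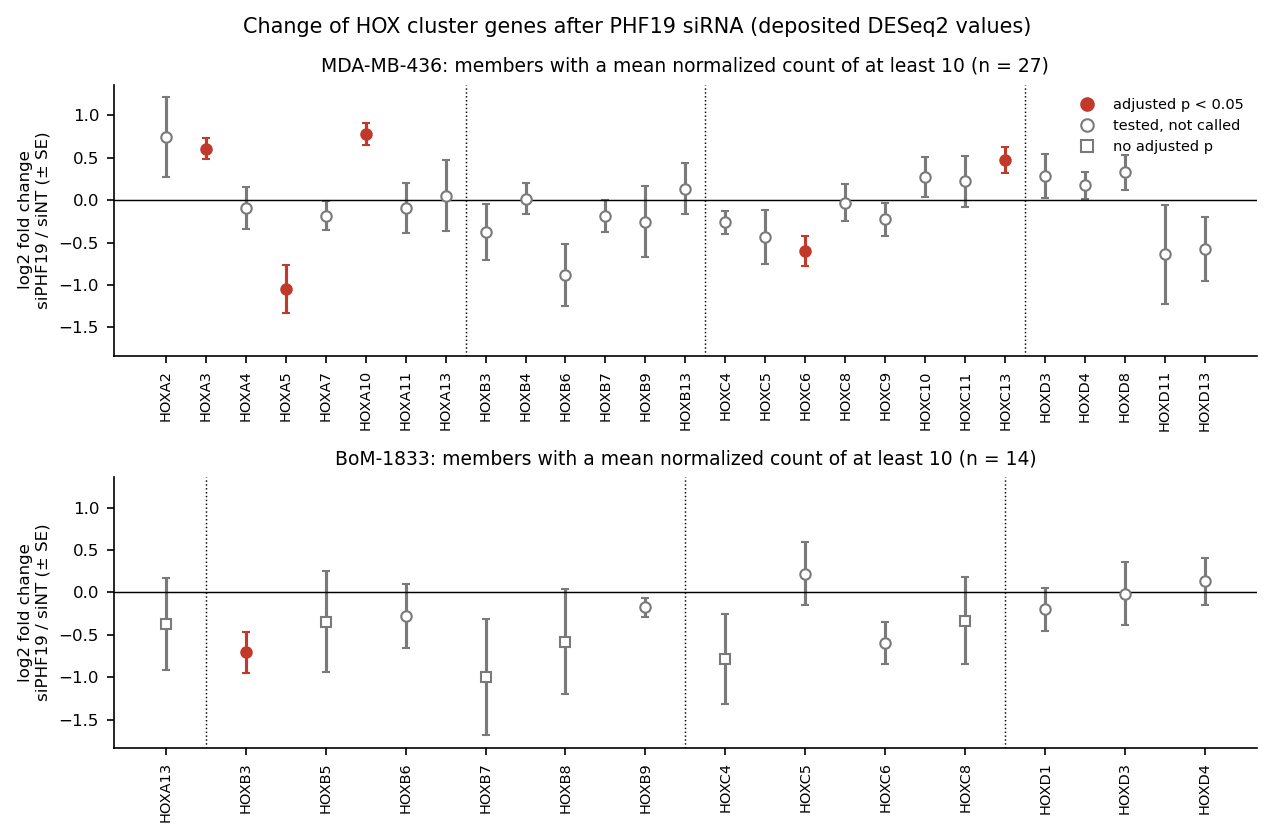
Log2 fold change of siPHF19 over siNT with its standard error, from the authors' deposited tables, for the 27 expressed members in MDA-MB-436 (top) and the 14 in BoM-1833 (bottom), with dotted lines between clusters. Filled red circles mark an adjusted p under 0.05, open circles members tested and not called, and open squares members without an adjusted p. HOXA10 is the highest called point at 0.78 and HOXA5 the lowest at -1.04. In BoM-1833, 12 of 14 points lie below 0, open squares included, beside 50.9% of all genes tested.

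From HOXA2 to HOXA13 the HOXA cluster spans chr7:27100354-27200106 on the minus strand (GRCh38). Of the 10 HOXA genes covered, 8 were expressed in MDA-MB-436 and 3 of 8 tested were called, 2 higher and 1 lower, beside 22.1% called over all genes tested (10.5% higher and 11.5% lower). HOXA3, needed for the thymus and parathyroid, had normalized counts of 254, 253 and 268 with the control pool and 374, 394 and 413 with siPHF19 in that line. Every siPHF19 library was above every siNT library. The log2 fold change in the authors' deposited table is 0.61 (SE 0.12, adjusted p 7.03e-06, DESeq2 Wald test). HOXA2, a patterning gene of the second branchial arch, was low, with 9.82, 14.7 and 17.1 in siNT and 17.4, 29.8 and 22.2 in siPHF19. The siPHF19 libraries lay just above the siNT libraries, and the value in the authors' deposited table is 0.75 (SE 0.47, adjusted p 0.267, DESeq2 Wald test), so HOXA2 was not called.

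HOXA10, a posterior gene known for its role in the uterus, had the highest level per length of exon in its cluster, at 108 normalized counts per kb. Its counts in MDA-MB-436 were 253, 275 and 225 in siNT and 421, 452 and 427 in siPHF19, again without overlap. The authors' deposited table gives it 0.78 (SE 0.12, adjusted p 1.42e-08, DESeq2 Wald test). Its neighbour HOXA9, a posterior gene best known from leukaemia, was not expressed, with counts from 1.22 to 5.46 in siNT and from 4.97 to 12 in siPHF19. The groups overlapped, and the authors' deposited table lists 1.36 (SE 0.90, log2 scale) for HOXA9 with no adjusted p. HOXA10 shares 368 exon bases with a transcript that joins it to HOXA9, and 608 of its exon bases lie opposite HOXA10-AS. Rows named HOXA10-AS and HOXA10-HOXA9 were at 0 in all 12 libraries.

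HOXA10 is shown here by its promoters because it rose while HOXA9 beside it stayed low, and because PHF19 is known to bind at CpG-rich DNA. The RefSeq table for GRCh38.p14 gives a window from 250 bases before to 50 bases after a start for 20 of the 38 members, with 26 distinct windows. Among the genes called in a line, windows were found for HOXA3 and HOXA10. CG pairs, the motif searched, are in capitals, and each sequence is on the minus strand.

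HOXA10, chr7:27179812-27180111: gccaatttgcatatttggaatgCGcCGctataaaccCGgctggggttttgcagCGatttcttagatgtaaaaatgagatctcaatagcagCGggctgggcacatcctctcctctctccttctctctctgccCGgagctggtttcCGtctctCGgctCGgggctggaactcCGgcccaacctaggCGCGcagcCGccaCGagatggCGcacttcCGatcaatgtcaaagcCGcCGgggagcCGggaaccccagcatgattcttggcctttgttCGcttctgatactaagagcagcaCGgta
HOXA10, chr7:27174271-27174570: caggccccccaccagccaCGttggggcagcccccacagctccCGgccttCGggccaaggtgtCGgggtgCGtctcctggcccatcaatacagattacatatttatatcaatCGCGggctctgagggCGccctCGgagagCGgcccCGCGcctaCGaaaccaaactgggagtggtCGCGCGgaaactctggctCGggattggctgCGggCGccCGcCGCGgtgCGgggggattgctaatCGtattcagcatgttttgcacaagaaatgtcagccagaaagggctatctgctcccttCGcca
HOXA9, chr7:27165488-27165787: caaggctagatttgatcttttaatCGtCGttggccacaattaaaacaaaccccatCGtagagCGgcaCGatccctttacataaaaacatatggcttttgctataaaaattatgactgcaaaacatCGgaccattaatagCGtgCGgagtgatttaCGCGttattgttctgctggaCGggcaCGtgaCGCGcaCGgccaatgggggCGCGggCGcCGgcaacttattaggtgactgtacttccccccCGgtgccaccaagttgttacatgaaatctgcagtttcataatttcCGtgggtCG

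The first HOXA10 window holds 21 CG pairs, the other holds 25 and that of HOXA9 holds 22. Over the 26 HOX windows the median was 22.5 CG pairs, beside 14 over all 35116 windows of the table, with 96.2% and 96.04% of windows holding at least 1. The count for HOXA9 thus lies between those of the 2 HOXA10 windows, and no binding data were used here. The windows of HOXA3 ranged from 0 to 29 CG pairs.

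HOXA5 was the only HOXA gene called lower. This gene is known for its role in lung development and is expressed in breast epithelial cells. Its counts were 73.1, 67.4 and 73.4 in siNT and 31.6, 28.2 and 44.4 in siPHF19, and the highest siPHF19 library was below the lowest siNT library. By the authors' deposited table HOXA5 changed by -1.04 on the log2 scale (SE 0.28, adjusted p 0.00224, DESeq2 Wald test). Without siPHF19 replicate 2, DESeq2 on the reads gave -0.91 and an adjusted p of 0.0681, so HOXA5 was not called in that fit. The share called over all genes tested was 13% in that fit, beside 22.1% with all libraries. The HOXA5 call held in the other 11 of 12 alternative fits. The calls of HOXA3 and HOXA10 held in all 12 alternative fits. HOXA4, HOXA7, HOXA11 and HOXA13 were expressed and not called, with log2 fold changes from -0.18 to 0.05 in the authors' deposited table.

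In BoM-1833 no read was assigned to any of the 9 genes from HOXA2 to HOXA11 in any of the 6 libraries, with 101 M reads in genes in all. That allows a level of up to 0.0296 RPM for each gene over the 6 libraries pooled, and up to 0.218 RPM in the shallowest single library, siPHF19 replicate 3. The pooled limit does not apply to the siPHF19 libraries alone, and both limits cover counting error only. In MDA-MB-436 the same genes had 6278 reads, and 46.9 to 63.9 RPM in the single libraries. HOXA13, a limb and genital tract gene at the far end, was the exception in BoM-1833. Its counts were 11.1, 19.4 and 19.1 in siNT and 11.9, 9.44 and 16.8 in siPHF19, with overlapping groups and no adjusted p in the authors' deposited table. The 9 silent genes also had 0 reads in the 3 siPHF19 libraries, so no rise from 0 after PHF19 depletion was detectable at this depth. HOTAIRM1, a noncoding RNA of the cluster, was likewise at 0 in BoM-1833, against 154 ± 4.68 normalized counts in siNT and 160 ± 20.2 in siPHF19 (SD, n = 3) in MDA-MB-436. SKAP2 and HIBADH, which flank the cluster, had mean normalized counts of 1153 and 1366 for BoM-1833.

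The HOXB cluster spans chr17:48528526-48729178 on the minus strand. In MDA-MB-436, 6 of 10 members were expressed and 0 of 6 tested were called, where 22.1% of all genes tested were called. With so few members tested, no difference from that share was tested. At an unadjusted p under 0.05 in the deposited Wald test was 1 member. It was also the 1 that edgeR and limma each called, beside 24.5% and 23.8% of all genes. That member was HOXB6, which had 31.7, 38.0 and 36.7 in siNT and 21.8, 18.2 and 17.95 in siPHF19. The groups did not overlap, and the value in the authors' deposited table is -0.88 (SE 0.37, adjusted p 0.0704, DESeq2 Wald test). With edgeR's quasi-likelihood test HOXB6 had an adjusted p of 0.0197 and with limma 0.0222. HOXB7, often reported at high levels in breast cancers, was the highest of its cluster per length in MDA-MB-436 at 89.8 normalized counts per kb. Its counts were 138, 117 and 139 in siNT and 104, 113 and 128 in siPHF19, which overlapped, and the log2 fold change in the authors' deposited table is -0.19 (SE 0.19, adjusted p 0.533, DESeq2 Wald test).

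BoM-1833 was dominated by HOXB9, a thoracic gene that is also active in mammary gland development. It had 186 normalized counts per kb, and 498, 520.1 and 509 counts in siNT and 476, 399.8 and 473 in siPHF19. The siPHF19 libraries lay below the siNT libraries by a small margin, and the value in the authors' deposited table is -0.18 (SE 0.11, adjusted p 0.364, DESeq2 Wald test). In siNT libraries HOXB9 stood at 30.4 ± 0.983 RPM in BoM-1833 and at 1.74 ± 0.693 in MDA-MB-436 (SD, n = 3).

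HOXB3, a hindbrain gene also active in blood stem cells, was the only member called in BoM-1833. Its counts were 86.5, 144 and 113 in siNT and 71.5, 63.7 and 74.5 in siPHF19. The siNT libraries were spread widely, but all were above the siPHF19 libraries. By the authors' deposited table HOXB3 changed by -0.71 on the log2 scale (SE 0.24, adjusted p 0.0333, DESeq2 Wald test). The call held without siNT replicate 1 (adjusted p 0.00707, DESeq2) and was lost without any of the other 5 libraries. Its adjusted p was then 0.372 without siNT replicate 2, 0.115 without siNT replicate 3, and 0.123, 0.210 and 0.104 without siPHF19 replicates 1, 2 and 3. In MDA-MB-436 HOXB3 had 32.7, 54.3 and 53.8 in siNT and 43.6, 34.8 and 30.6 in siPHF19, which overlapped, and the value in the authors' deposited table is -0.38 (SE 0.33, adjusted p 0.456, DESeq2 Wald test). HOXB3 lies at chr17:48548870-48604912, shares 121 exon bases with HOXB4, and 433 exon bases of HOXB6 are shared with it on the same strand. It also overlaps HOXB-AS1 and HOXB-AS3 on the opposite strand. Few reads were assigned to those 2 rows. HOXB-AS3 was at 0 in all 12 libraries, and HOXB-AS1 had mean normalized counts of 0.154 for BoM-1833 and 3.34 for MDA-MB-436. The strand setting of the counting is not given, so the strand of reads there cannot be told.

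The remaining HOXB members of BoM-1833 were low. HOXB7 had 5.56, 17.5 and 21.9 in siNT and 7.95, 3.54 and 10.8 in siPHF19, and HOXB8, a gene of the trunk, had 13.5, 21.2 and 11.4 against 4.97, 7.08 and 19.2. Both overlapped between groups, and the authors' deposited table lists log2 changes of -1.0 (SE 0.68) and -0.58 (SE 0.62) with no adjusted p. Without 1 library, DESeq2 gave -1.41 (without siNT replicate 1) to -0.63 (without siNT replicate 3) for HOXB7. For HOXB8 it gave -1.36 (without siPHF19 replicate 3) to -0.23 (without siPHF19 replicate 1). All 6 expressed HOXB members of BoM-1833 had a log2 fold change below 0, with 1 called. Over all genes tested, 50.9% were below 0 and 10.9% were called. HOXB5, HOXB7 and HOXB8 had no adjusted p, and HOXB3 and HOXB6 share exon bases, so the 6 signs are not independent evidence. HOXB13, known from prostate, was expressed in MDA-MB-436 (36.0 to 62.8) and at 0 in BoM-1833.

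The HOXC cluster spans chr12:53938765-54056030 on the plus strand, with HOXC13 at its start and HOXC4 at its end. In MDA-MB-436, 8 of 9 members were expressed and 2 of 8 tested were called, 1 in each direction. Called over all genes tested in that line were 22.1%. HOXC4, HOXC5, HOXC6, HOXC8 and HOXC9 had log2 fold changes below 0 in the authors' deposited table and HOXC10, HOXC11 and HOXC13 above 0, but 6 of the 8 did not pass the test, HOXC8 was at -0.03 (SE 0.22), and a pattern by position was not tested. HOXC13, which drives hair keratin genes, had 187, 195 and 153 in siNT and 265, 245 and 237 in siPHF19. The groups were apart, and the value in the authors' deposited table is 0.47 (SE 0.15, adjusted p 0.0119, DESeq2 Wald test). The call was lost without siNT replicate 3 (adjusted p 0.0745, DESeq2) and without siPHF19 replicates 1 (0.137), 2 (0.0897) and 3 (0.0542).

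HOXC6, a thoracic gene expressed in mammary gland, had 144, 175 and 163 in siNT and 106, 113 and 100.3 in siPHF19 in MDA-MB-436. Every siPHF19 library was below every siNT library. The log2 fold change in the authors' deposited table is -0.60 (SE 0.18, adjusted p 0.00627, DESeq2 Wald test). It was no longer called without siNT replicate 2 (adjusted p 0.133, DESeq2) or siPHF19 replicates 1 (0.0626) or 3 (0.0748). In BoM-1833, where HOXC6 led the cluster per length at 19.5 normalized counts per kb, it had 88.1, 76.5 and 84.9 in siNT and 53.6, 50.7 and 61.3 in siPHF19. These groups did not overlap either, and the value in the authors' deposited table is -0.59 (SE 0.25, adjusted p 0.115, DESeq2 Wald test). The 2 lines differed in the HOXC6 fold change by 0.00 on the log2 scale (95% interval -0.60 to 0.60). In BoM-1833 HOXC6 was called by edgeR's quasi-likelihood test (adjusted p 0.0348) and by limma (0.0332).

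HOXC4, the highest HOXC member per length in MDA-MB-436 at 113 normalized counts per kb, had 274, 284 and 283 in siNT and 244, 244 and 213 in siPHF19. The siPHF19 libraries were all lower, and the value in the authors' deposited table is -0.26 (SE 0.13, adjusted p 0.149, DESeq2 Wald test). In BoM-1833 HOXC4 had 17.5, 20.3 and 18.1 in siNT and 10.9, 11.8 and 9.61 in siPHF19, also without overlap, with -0.79 (SE 0.53, log2 scale) and no adjusted p in the authors' deposited table. On the same strand, 21.3% of the HOXC4 exon bases are shared with annotated exons of HOXC6 and HOXC5. Of the HOXC6 exon bases, 15.7% are shared with HOXC4, HOXC5 and HOXC9. The HOXC5 entry with coding transcripts shares exon bases only with AC012531.2. Reads of HOXC4 and HOXC6 may thus be split between them, and their values are not independent. HOXC13 had 2 reads in all 6 BoM-1833 libraries together, and HOXC10 had a mean normalized count of 0.609, against 70.6 in MDA-MB-436.

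**Figure D4:**
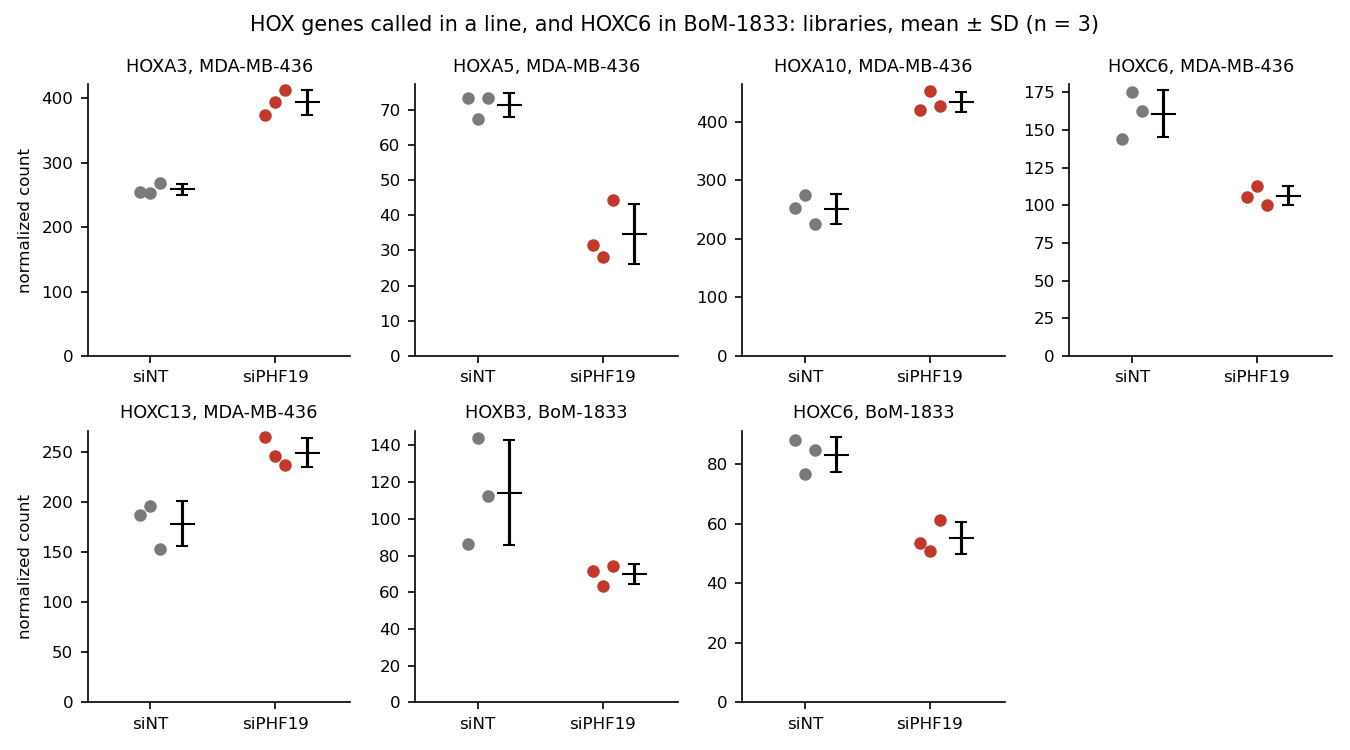
Normalized counts by library (points) with mean and SD (n = 3) in siNT (grey) and siPHF19 (red) for the 5 genes called in MDA-MB-436, HOXB3, called in BoM-1833, and HOXC6 in BoM-1833, each on its own axis from 0. In every panel the groups do not overlap, and HOXC6 in BoM-1833 was not called (adjusted p 0.115, DESeq2 Wald test).

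The HOXD cluster spans chr2:176092891-176190907 on the plus strand, and none of its members was called in either line. MDA-MB-436 had 6 tested and BoM-1833 had 3. Of these, 0 had an unadjusted p under 0.05 in the deposited DESeq2 Wald test, and edgeR and limma called 0. The shares called over all genes tested were 22.1% for MDA-MB-436 against 10.9% for BoM-1833. With so few HOXD members, no difference from these shares was tested. HOXD4, a hindbrain and neck gene, was the highest per length in both lines, with 115 normalized counts per kb for MDA-MB-436, and 41.1 for BoM-1833. Its counts in MDA-MB-436 were 157, 167 and 148 in siNT and 185, 186 and 164 in siPHF19. In BoM-1833 they were 46.0, 67.3 and 59.1 against 57.6, 75.5 and 55.3, and the groups overlapped in both lines. A noncoding gene annotated across HOXD3 and HOXD4 shares 80.5% of the HOXD4 exon bases. The limb genes HOXD11 and HOXD13 were expressed in MDA-MB-436 only. HOXD11 had 19.6, 16.3 and 8.56 against 9.81, 6.63 and 12.7, which overlapped, and the value in the authors' deposited table is -0.64 (SE 0.58, adjusted p 0.480, DESeq2 Wald test). HOXD13 had 51.3, 29.5 and 28.1 against 25.1, 21.5 and 26.4, with all siPHF19 libraries below siNT, and -0.58 (SE 0.38, adjusted p 0.300, DESeq2 Wald test) in the authors' deposited table. Without siNT replicate 1 the HOXD13 value was -0.25 (DESeq2). HOXD1, by contrast, was higher in BoM-1833, at 65.8 to 111 in siNT and 64.9 to 81.7 in siPHF19, than in MDA-MB-436, where it was under the minimum.

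No HOX member was found to change differently in the 2 lines. The 8 members tested in both (HOXB3, HOXB6, HOXB9, HOXC5, HOXC6, HOXD1, HOXD3 and HOXD4) were compared by a z test on the fold changes of the authors' deposited tables, adjusted over 12290 genes. Of these 8, 0 were called, against 4.89% of all genes, 0 had an unadjusted p under 0.05, and the smallest adjusted p was 0.557, that of HOXC5. An interaction term in DESeq2 over all 12 libraries also called 0. The intervals are wide: HOXC5, at 0.22 in BoM-1833 against -0.44 in MDA-MB-436, differed by 0.66 with a 95% interval from -0.30 to 1.62, and HOXB6 by 0.60 from -0.43 to 1.64. The 3 HOXA calls have no counterpart to compare, because those genes were at 0 in BoM-1833.

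Among the DNA-binding partners, 8 TALE genes were tested in MDA-MB-436 and 2 rose, where 22.1% of all genes tested were called (10.5% higher). MEIS2, a HOX cofactor, rose from 341 ± 8.44 to 475 ± 27.6 normalized counts (SD, n = 3), and the value in the authors' deposited table is 0.48 (SE 0.11, adjusted p 2.03e-04, DESeq2 Wald test). PKNOX2 rose from 11.2 ± 1.69 to 32.1 ± 4.59, with 1.52 (SE 0.44, adjusted p 0.00413, DESeq2 Wald test) in the authors' deposited table. In BoM-1833, where 10.9% of all genes were called (5.21% higher), 1 of 7 tested rose, PBX2, with 0.25 (SE 0.06, adjusted p 0.00208, DESeq2 Wald test) in the authors' deposited table. The tested TALE genes had a median of 0.09 in BoM-1833 against 0.21 in MDA-MB-436, beside -0.00 over all genes tested in either line.

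Of 16 tested Trithorax-group and other HOX activators, 4 rose and 2 fell in MDA-MB-436, and 0 rose and 1 fell in BoM-1833, beside 22.1% and 10.9% of all genes called. PSIP1, which encodes LEDGF, the chromatin tether of the MLL histone methyltransferases, fell in both lines. In MDA-MB-436 it had 2728 ± 406 normalized counts with siNT and 1622 ± 48.9 with siPHF19 (SD, n = 3). The BoM-1833 means were 1469 ± 47.2 and 1210 ± 83.1. The authors' deposited tables give -0.75 (SE 0.10, adjusted p 3.72e-11) and -0.28 (SE 0.08, adjusted p 0.00558, DESeq2 Wald test). The genes that rose in MDA-MB-436 were KDM6A (0.49) and KDM6B (0.46), which encode demethylases of the PRC2 mark, DOT1L (0.39), a histone H3 lysine 79 methyltransferase, and KMT2B (0.27), and ASH2L fell by 0.28, all from the authors' deposited table. KMT2B, at an adjusted p of 0.0433 there (DESeq2 Wald test), was called by neither edgeR nor limma. Of 13 tested genes for PRC2 subunits, PHF19 included, 1 rose and 4 fell in MDA-MB-436, and 0 rose and 3 fell in BoM-1833, against the same 22.1% and 10.9%, and the depleted PHF19 is 1 of the calls in each line. With edgeR and with limma 6 were called in MDA-MB-436, JARID2 added, and in BoM-1833 limma called 4, EZH2 added. AEBP2 and C17orf96, accessory subunits, were among those that fell in both, with deposited log2 fold changes of -0.60 and -0.61 for MDA-MB-436, and -0.36 and -0.37 for BoM-1833, in the authors' deposited tables.

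Of the retinoic acid and CDX genes, 1 rose and 2 fell of 13 tested in MDA-MB-436, where 22.1% of all genes were called. There edgeR called 5, with CRABP1 and CRABP2 added, and limma 4, with CRABP2 added. ALDH1A3, an enzyme that makes retinoic acid, fell from 9772 ± 252 to 6548 ± 455 normalized counts (SD, n = 3), with -0.58 (SE 0.07, adjusted p 3.09e-14, DESeq2 Wald test) in the authors' deposited table. Its relative ALDH1A1 fell from 107 ± 11.5 to 48.6 ± 6.64, and the receptor gene RARG rose from 306 ± 38.4 to 414 ± 19.0. In BoM-1833, 0 of 7 tested were called by the deposited DESeq2 Wald test, by edgeR or by limma, and 1 had an unadjusted p under 0.05. It was CRABP2, a retinoic acid carrier gene, at -0.49 (SE 0.23, adjusted p 0.175, DESeq2 Wald test) in the authors' deposited table. STRA6, of the same list, had no adjusted p and a low mean normalized count of 5.16, but the largest Wald statistic of the list there. Its counts were 1.59, 0 and 0 in siNT and 13.9, 8.26 and 7.21 in siPHF19. The authors' deposited table gives STRA6 4.09 (SE 1.32, log2 scale, unadjusted p 0.00186, DESeq2 Wald test).

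Of the noncoding RNAs and genes beside the clusters, 2 of 12 tested rose in MDA-MB-436, SKAP2 and HIBADH beside HOXA, where 22.1% of all genes were called. With edgeR and with limma 3 were called, adding MTX2 beside HOXD (adjusted p 0.0635 by the DESeq2 Wald test of the authors' deposited table). SKAP2, an adaptor protein gene, had 445, 488 and 534 in siNT and 725, 711 and 734 in siPHF19, without overlap. The authors' deposited table gives SKAP2 0.57 (SE 0.10, adjusted p 6.87e-07) and HIBADH, a valine breakdown enzyme gene on the far side, 0.26 (SE 0.10, adjusted p 0.0387, DESeq2 Wald test). In BoM-1833, 0 of 7 were called by the deposited DESeq2 Wald test, by edgeR or by limma, and 0 had an unadjusted p under 0.05, with SKAP2 at 0.08 (adjusted p 0.650) and HIBADH at 0.10 (adjusted p 0.535) in the authors' deposited table. HOTAIR, the noncoding RNA of the HOXC cluster, was near the minimum in MDA-MB-436 (9.31 ± 5.30 in siNT, 13.5 ± 4.58 in siPHF19) and at 0.572 ± 0.5 in siNT and 0 in siPHF19 in BoM-1833.

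The 6-base word AAACTG in 3′ UTRs, which an earlier look at these data had linked to genes lower in both lines, was counted on the sense strand of the members' 3′ UTRs in GENCODE v29. It occurs in 13 of 38 members. All 6 genes called in a line hold it, the 3 that rose and the 3 that fell alike, with 2 copies in HOXA5, HOXC6 and HOXA3 and 1 in HOXA10, HOXB3 and HOXC13. Of the members tested and not called, 3 of 7 in BoM-1833, and 6 of 23 in MDA-MB-436, hold it. Over all genes, 73.8% of 363 genes lower in both lines hold it, 38.3% of 298 higher in both and 46.3% of 7810 called in neither. The 6 called HOX genes were each called in only 1 line, and no share was computed for such genes. Longer 3′ UTRs hold any word more often. The called members' UTRs were 783 to 1731 bases long, beside 262 to 3834 over all 38 members. These counts are therefore a description only.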

How the data were processed

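The members, gene lists and the 3′ UTR word were chosen with earlier results of these data known. RNA from 12 libraries was prepared with a stranded mRNA kit, per the labels' protocols. The submitters' processing notes name STAR, RSEM 1.3.1, DESeq2 1.46.0 and the build hg38; the gene annotation and strand setting are not given in the sources used here. The authors deposited 1 table per line, whose library values are a signal, namely counts divided by a size factor for each library. The deposited fold changes are on the log2 scale, not shrunken, the deposited Wald statistic is a score, and the deposited p-values and adjusted p-values (Benjamini-Hochberg) come from DESeq2. No per-sample column belonged to another series (0 columns).

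The deposited test was the main test, with calls at an adjusted p under 0.05. Members without an adjusted p were not tested. In each library column 100% of values were whole multiples of 1 step (within 0.001 reads), so whole reads were recovered, and depth and RPM come from them. DESeq2 1.42.0, edgeR 4.0.16 (quasi-likelihood, TMM) and limma 3.58.1 on log2(normalized count + 1), in R 4.3.3, were run as alternatives and tested on simulated data. On the recovered reads, DESeq2 called as many genes as deposited, 3143 for MDA-MB-436 and 1411 for BoM-1833. Between replicates of a group, chi-square per degree of freedom was 2.32 to 25.5, so no library was counted as a copy. The difference between lines is z, from the deposited log2 fold changes and standard errors. With 3 against 3 libraries an exact 2-sided permutation test cannot go below p = 0.1. Lengths are unions of exons of coding transcripts in GENCODE v29 (GRCh38), promoter windows are from RefSeq (GRCh38.p14), and a count of 0 is given the limit of 3 reads. Named members are those called in a line, the highest per length of each cluster, and expressed members with an absolute log2 fold change of at least 0.5. Other genes named were called in their list by any of the tests, had its largest statistic, were cell type markers, or were chosen after their values were seen. The last were HOXA9, HOXB13, HOXC5, HOXC10, HOXD1, HOTAIR and HOTAIRM1. The results of 1 HOX member and of 1 gene of another list are not reported here, and they are left out of the counts, sums and figures of the members and lists.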

Additional observations from a re-analysis of the deposited data

How the results depend on the processing

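Of 261 alternative values of the named members, 234 kept their direction and their side of the threshold. Most named members were not called, and values without an adjusted p were counted as uncalled. These were 8 each for HOXA13, HOXB7, HOXB8, HOXC4 and HOXC13 in BoM-1833 and 4 for HOXD11 in MDA-MB-436. Among called genes, the call was lost in 6 of 12 alternatives for HOXB3 in BoM-1833. In MDA-MB-436 it was lost in 5 of 12 for HOXC13, 4 of 12 for HOXC6 and 1 of 12 for HOXA5. In MDA-MB-436 the count of 5 HOX calls stayed within 1.5 times in 9 of 14 alternatives (6 with edgeR or limma). It was 3 to 5 without 1 library, with 3 when any siPHF19 library was left out, and a minimum absolute log2 fold change of 1 left 1, HOXA5. Over all genes tested, 12.9% to 13.8% were called in MDA-MB-436 without a siPHF19 library, and 5.99% to 17% in BoM-1833 without 1 library. In BoM-1833 the count of 1 was 0 to 1 without 1 library, 2 with edgeR and with limma at either pseudocount (HOXC6 added), and 0 with the minimum of 1. With the replicate number as a block, 3 HOX genes were called in MDA-MB-436 (HOXC6 at an adjusted p of 0.0953 and HOXC13 at 0.102 were lost, DESeq2) and 0 in BoM-1833 (HOXB3 at 0.271), while the calls over all genes went from 3143 to 1610 and from 1411 to 610. The numbers do not pair the libraries: deviations of same-numbered libraries correlated at -0.27 to 0.04 (MDA-MB-436) or -0.31 to -0.12 (BoM-1833), and 2 and 0 of 6 libraries correlated best with their own number. Between lines 0 members were called in all 15 alternatives. In BoM-1833 the log2 fold change of HOXD4 (0.13) was between -0.023 and 0.26 without 1 library, turning below 0 without siNT replicate 1 (-0.012) and without siPHF19 replicate 2. That of HOXC13, with 2 reads in all, went from 0.34 to between -0.68 and 1.33, below 0 without siNT replicate 1 (-0.22), siNT replicate 3 (-0.16) or siPHF19 replicate 3. Other values without a call that moved by over 1.5 times without 1 library were, in MDA-MB-436, HOXB3 (-0.57 to -0.25), HOXB7 (-0.27 to -0.12) and HOXD11 (-0.90 to -0.39), and HOXA13 (-0.62 to -0.20) and HOXB9 (-0.22 to -0.10) in BoM-1833. A minimum mean count of 20 would leave 8 members expressed in BoM-1833 and 25 in MDA-MB-436, and a minimum of 5 would give 15 and 29. Fewer libraries leave fewer degrees of freedom; no other cause was tested. In BoM-1833, 6 expressed members had no adjusted p, with standard errors of 0.52 to 0.68; the lowest mean normalized count with one was 16.6 there and 7.98 for MDA-MB-436.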
